A study of Anser anser with 2 samples.

Results

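The miR-30 family was followed in the small RNA of goose liver, in 1 overfed and 1 control library. Its members were the miRNA names with the number 30 and a letter from a to e, summed by letter and by arm, which gave 10 members among 1186 miRNA names and arms. The overfed library came from fatty liver of geese given a diet rich in carbohydrate for 21 days (3353 kcal, 76 g of protein and 15 g of fat per kg), and the control library from normal liver of geese on a basal diet eaten at will (2873 kcal and 171 g of protein per kg). Both diets were given to male geese of the Landes breed, aged 90 days, and the experiment used 60 of them. The sources used here do not say how many birds went into a library. Without replicates the diets cannot be tested against each other: each difference is between these 2 libraries. Each interval covers counting error only, not variation between birds or libraries. It also treats reads as independent, although no molecular identifier marks which of them were amplified from the same molecule. The intervals can therefore be too narrow even for counting error. Below, a difference beyond counting error is one judged by these intervals. The table of the overfed library listed 9737540 miRNA reads and that of the control library 9178938. Levels are reads per 1000000 of these listed reads (RPM), with no correction for length, since a read spans a whole miRNA.

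A miRNA precursor is a hairpin whose 5p and 3p arms can each give a mature miRNA, and the seed, bases 2 to 8 of the mature strand, leads the pairing with target messages. All 5p arms of the miR-30 family carry the same seed, so they share most predicted targets, while the 3p arms carry other seeds. In vertebrates the genes lie in pairs, mir-30a with mir-30c-2, mir-30b with mir-30d, and mir-30e with mir-30c-1 inside the gene NFYC. In mammals, miR-30 members restrain the connective tissue growth factor CCN2, and miR-30c acts on MTTP, the protein that loads lipid onto lipoproteins in hepatocytes. These roles were described in mammals and were not measured here.

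The most common reads of the main 5p members are shown first, because they differ by single bases that decide which member a read is given to. The seed is in capitals.
miR-30d-5p: tGTAAACAtccccgactggaagc
miR-30a-5p: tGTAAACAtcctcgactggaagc
miR-30e-5p: tGTAAACAtccttgactggaagc
miR-30c-5p: tGTAAACAtcctacactctcagct
Counted from 1 at the 5′ end, miR-30a-5p is separated from miR-30d-5p by T12C and from miR-30e-5p by C13T. A wrong base at either place would turn a read of 1 member into that of another. The pairing of bases 12 and 13 that none of these 3 members has, which a single wrong base in a miR-30d-5p or miR-30e-5p read would give, was found in 3 overfed and 2 control reads. These were 0.0119% of the 42175 reads that had the shared first 11 bases and at least 14 bases in all, where a count of 0 would allow 0.00711%.

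The most common 3p reads fell into 2 sets of sequence, with bases 2 to 8 of each read in capitals.
miR-30c-1-3p: tGGGAGAGgattgtttacgcca
miR-30c-2-3p: cTGGGAGAaggctgtttact
miR-30a-3p: tTTCAGTCggatgtttgcagc
miR-30e-3p: cTTTCAGTcggatgtttacagt
The listed references of miR-30a-3p and miR-30e-3p differ by G18A. Reads of miR-30c-1-3p were listed under a mouse reference, from which they differed at G11A in 99.9% of overfed and 99.9% of control reads, and at T20G in 99.7% of overfed and 99.7% of control reads that reached that base. With 0 of 1690 overfed reads and 1 of 1568 control reads free of a mismatch, nearly every read of this arm departed from the reference it was listed under.

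The family as a whole was lower in the overfed library. It had 20332 overfed reads (2088 RPM) and 31741 control reads (3458 RPM), a log2 ratio of -0.73 (exact 95% interval -0.75 to -0.70), or 1.66 times lower. As a share of listed miRNA reads this was 0.209% in the overfed library (0.206% to 0.212%) and 0.346% in the control library (0.342% to 0.350%). The arms differed. The 5p arms summed to 1635 RPM in the overfed and 2945 RPM in the control library (log2 ratio -0.85, -0.88 to -0.82), whereas the 3p arms summed to 453 RPM in the overfed and 513 RPM in the control library (log2 ratio -0.18, -0.24 to -0.12). The median log2 ratio was 0.07 over the 145 miRNAs with a mean of at least 10 RPM, and 0.10 over the 137 of them outside the family. In bulk liver RNA, fewer cells of a type and less miRNA per cell cannot be told apart.

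**Figure D1:**
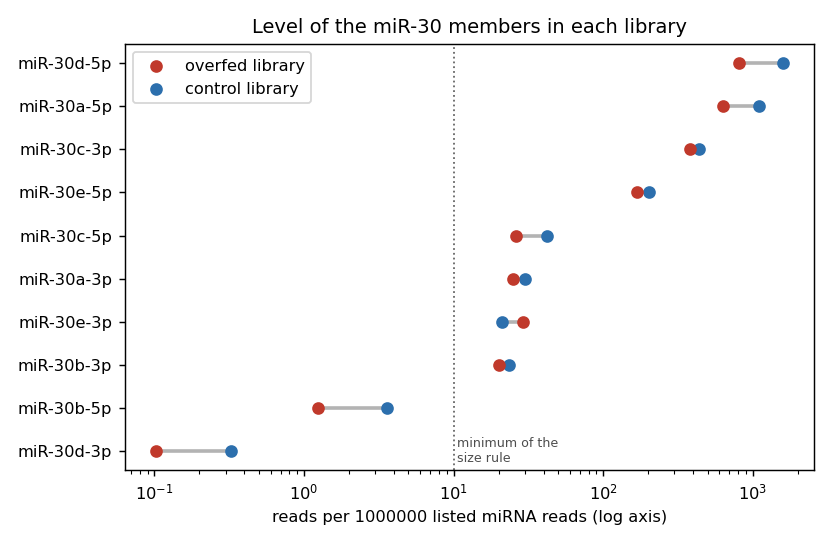
Level of each miR-30 member in the overfed library (red) and the control library (blue), in reads per 1000000 listed miRNA reads on a log axis, with members ordered by mean level and a dotted line at 10 RPM. By the deposited names, the overfed point lies left of the control point for 9 of the 10 members, with miR-30e-3p the exception, and miR-30b-5p and miR-30d-3p lie below the line.

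Differences were called by a rule of size, which asks for a ratio of 2 times or more with an interval that excludes 1, in miRNAs whose mean is 10 RPM or more. Of the 10 members, 8 had at least 10 RPM and none met the rule, against 8.28% of the 145 miRNAs in either direction and 1.38% in the lower direction. In all 12 miRNAs met it, 10 higher and 2 lower in the overfed library. With edgeR's TMM factors the split was 3 higher and 6 lower, and with DESeq2's factors 6 higher and 5 lower. Beyond counting error, 6 of the 8 were lower in the overfed library, against 33.1% of the 145, and 1 was higher, against 45.5%. The 8 are counted by the deposited names. They include miR-30b-3p, whose interval includes 0 and whose reads mostly have the miR-30a-3p sequence, so that sequence is counted under 2 names. The median log2 ratio of the 8 was -0.28. Those lower by at least 1.5 times were miR-30a-5p, miR-30c-5p and miR-30d-5p, that is 3 of 8, against 9.66% of the 145 in that direction and 26.9% in either.

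miR-30d-5p, the most abundant member, had 7846 reads in the overfed library (806 RPM) and 14675 in the control library (1599 RPM). Its level was 1.98 times lower in the overfed library, a log2 ratio of -0.99 (-1.03 to -0.95), just short of the 2 times that the rule asks for. It had the lowest log2 ratio of the 60 miRNAs with a mean of at least 100 RPM. The call turned with scaling: TMM factors, which lower all log2 ratios by 0.21, put it at -1.19, and DESeq2's factors, which lower them by 0.10, at -1.09, so that it met the rule under both.

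miR-30a-5p, which in human cells is known to restrain the autophagy gene BECN1, had 6180 overfed reads (635 RPM) and 10077 control reads (1098 RPM). Its log2 ratio was -0.79 (-0.84 to -0.74), the third lowest of the 60. Together miR-30d-5p and miR-30a-5p gave 69.0% of the family's reads in the overfed library and 78.0% in the control library. The 5p reads alone, a share that scaling between libraries does not alter, were 49.3% miR-30d-5p in the overfed library (48.5% to 50.1%) and 54.3% in the control library (53.7% to 54.9%). miR-30a-5p was 38.8% of overfed and 37.3% of control 5p reads, with intervals that did not overlap (38.1% to 39.6% and 36.7% to 37.9%).

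miR-30e-5p, whose gene lies in NFYC, had 1632 overfed reads (168 RPM) and 1860 control reads (203 RPM). Its log2 ratio of -0.27 (-0.37 to -0.18) was smaller in size than those of miR-30a-5p and miR-30d-5p, and the intervals did not overlap. Its share of 5p reads was therefore higher in the overfed library, at 10.2% (9.78% to 10.7%), against 6.88% in the control library (6.58% to 7.19%). miR-30c-5p, which is made from both mir-30c genes and cannot be split between them, had 255 overfed reads (26.2 RPM) and 386 control reads (42.1 RPM), a log2 ratio of -0.68 (-0.92 to -0.45). miR-30b-5p, close to miR-30c-5p in sequence, was scarce, with 12 overfed and 33 control reads (1.23 and 3.60 RPM). Its log2 ratio of -1.54 (-2.63 to -0.55) rests on these few reads.

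**Figure D2:**
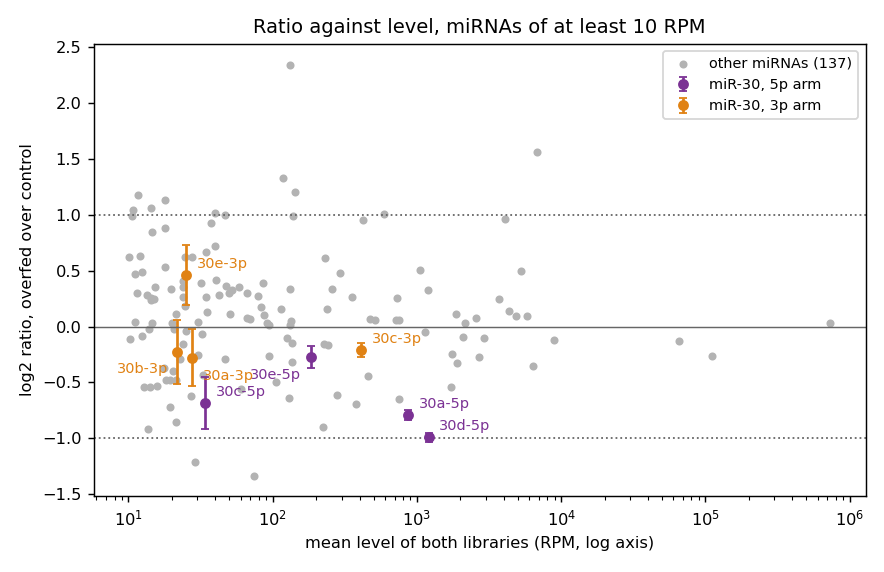
Log2 ratio of overfed over control against the mean level of both libraries (RPM, log axis) for miRNAs of at least 10 RPM, with 137 other miRNAs in grey, miR-30 5p arms in purple and 3p arms in orange. Bars are exact 95% intervals for counting error and dotted lines mark a ratio of 2 times. miR-30d-5p at -0.99 and miR-30a-5p at -0.79 lie below the grey points of similar level, and the 3p arms lie between -0.28 and 0.46.

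Among the 3p arms, miR-30c-3p was the most abundant, with 3685 overfed reads (378 RPM) and 4020 control reads (438 RPM) and a log2 ratio of -0.21 (-0.28 to -0.15). Its 2 gene copies can be told apart on this arm. miR-30c-2-3p, whose gene is paired with mir-30a, had 205 RPM in the overfed and 267 RPM in the control library (log2 ratio -0.38, -0.47 to -0.30). Its ratio varied with read length. Reads of 20 bases or fewer, 84.0% of its overfed and 77.8% of its control reads, had a log2 ratio of -0.27 (-0.37 to -0.18). With only tags of at least 21 bases kept, miR-30c-2-3p was at -0.84 (-1.04 to -0.64). miR-30c-1-3p, whose gene is paired with mir-30e, had 174 and 171 RPM in the overfed and the control library, a log2 ratio of 0.02 with an interval that includes 0 (-0.08 to 0.12). The sign of that last value was negative with TMM factors (-0.18), with DESeq2's factors (-0.08) and when shorter tags than 21 bases were left out (-0.03). Of the pair, mir-30c-1 gave 45.9% of miR-30c-3p reads in the overfed library (44.2% to 47.5%), against 39.0% in the control library (37.5% to 40.5%). Scaling between libraries does not alter that share.

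miR-30e-3p was the only member of at least 10 RPM that was higher in the overfed library, with 283 overfed reads (29.1 RPM) and 194 control reads (21.1 RPM). Its log2 ratio was 0.46 (0.19 to 0.73). It stayed above 0 with TMM factors, at 0.25, where the interval reached 0 (-0.015 to 0.52). miR-30a-3p had 242 overfed reads (24.9 RPM) and 277 control reads (30.2 RPM), a log2 ratio of -0.28 (-0.53 to -0.03). Its interval included 0 with tags of at least 21 bases (-0.51 to 0.01) and with totals without miR-122 (-0.44 to 0.07). The same held with each read length scaled to listed reads of that length outside miR-30 and miR-122 (-0.49 to 0.02). It excluded 0 with TMM factors (-0.74 to -0.23), DESeq2's factors (-0.63 to -0.13) and tags without a mismatch or gap (-0.575 to -0.044).

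The reads named miR-30b-3p (196 overfed and 216 control reads, log2 ratio -0.23, -0.51 to 0.06) were of another kind. Nearly all were listed under a zebra finch reference that is the miR-30a-3p sequence without its last base, and 95.4% of the overfed and 95.8% of the control reads were nearest to miR-30a-3p. With each read given to its nearest member, miR-30a-3p had 432 overfed and 490 control reads (log2 ratio -0.27, -0.46 to -0.08), and miR-30b-3p kept 6 overfed and 2 control reads. The values of miR-30d-5p (-0.99), miR-30a-5p (-0.79), miR-30c-3p (-0.21), miR-30e-5p (-0.27) and miR-30e-3p (0.44) hardly moved. miR-30d-3p, the minor arm of the most abundant member, had 1 overfed and 3 control reads, at or under the 3 counts that a count of 0 allows (0.308 RPM in the overfed and 0.327 RPM in the control library).

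The order of the 4 most abundant members was the same in both libraries: miR-30d-5p, miR-30a-5p, miR-30c-3p and miR-30e-5p, with no overlap of counting intervals between neighbours. By the deposited names, the next 4 lay between 20.1 and 29.1 RPM in the overfed library and between 21.1 and 42.1 RPM in the control library. In the overfed library miR-30e-3p, miR-30c-5p and miR-30a-3p overlapped in their intervals, and miR-30b-3p overlapped with miR-30c-5p and miR-30a-3p. In the control library miR-30c-5p stood above the other 3, whose neighbours overlapped. That order of the next 4 does not hold with each read given to its nearest member. miR-30a-3p then stood at 44.4 RPM in the overfed and 53.4 RPM in the control library, above miR-30c-5p at 26.2 and 41.5 RPM.

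Arm use differed widely between letters. miR-30a, miR-30d and miR-30e were read mostly from the 5p arm, and miR-30c mostly from the 3p arm. The 3p arm gave 93.5% of miR-30c reads in the overfed library (92.7% to 94.3%) and 91.2% in the control library (90.4% to 92.1%). It gave 14.8% of miR-30e reads in the overfed library (13.2% to 16.5%), against 9.45% in the control library (8.21% to 10.8%). For miR-30a, with reads given to their nearest member, the 3p share was 6.54% in the overfed library (5.95% to 7.16%) and 4.64% in the control library (4.25% to 5.06%). For miR-30d it was 0.0127% of 7847 overfed and 0.0204% of 14678 control reads. The 3p share was thus higher in the overfed library for miR-30a, miR-30c and miR-30e beyond counting error. Over the whole family it was 21.7% (21.1% to 22.3%), against 14.8% in the control library (14.4% to 15.2%). That family share also depends on the mix of letters. miR-30c, read mostly from the 3p arm, had a log2 ratio of -0.25 over both arms, against -0.99 for miR-30d and -0.77 for miR-30a. The part of this mix in the family share was not tested. Each share compares arms within a library, so no scaling between libraries enters it, but it is not corrected for read length.

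**Figure D3:**
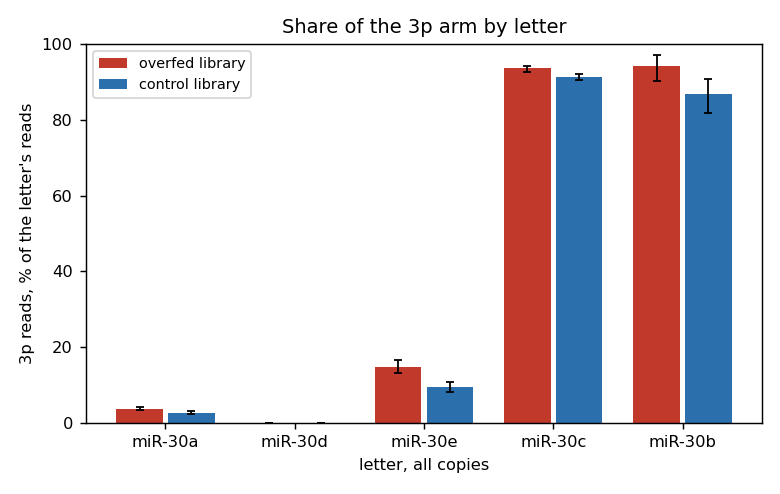
Share of 3p reads among all reads of each miR-30 letter, in percent, by the deposited names, with the overfed library in red left of the control library in blue and bars for exact 95% intervals. miR-30c stands at 93.5% and 91.2%, and miR-30e at 14.8% and 9.45%, in the overfed and the control library. The high share of miR-30b comes from reads that have the sequence of miR-30a-3p.

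The ratio varied with read length. The mature 5p read ended at base 22, 23 or 24, as in the following reads of miR-30a-5p, shown because their ratios differed.
miR-30a-5p, 22 bases: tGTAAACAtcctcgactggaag
miR-30a-5p, 23 bases: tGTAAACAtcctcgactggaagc
miR-30a-5p, 24 bases: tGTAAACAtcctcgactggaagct
The 22-base form stood at 210 RPM in the overfed and 284 RPM in the control library (log2 ratio -0.44, -0.52 to -0.35). The 23-base form stood at 304 RPM in the overfed and 545 RPM in the control library (-0.84, -0.91 to -0.78). The 24-base form stood at 55.1 RPM in the overfed and 150 RPM in the control library (-1.44, -1.59 to -1.30). Each added base thus went with a lower ratio, and the 3 intervals did not overlap.

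miR-30d-5p did not show the same steps. Its 22-base form had a log2 ratio of -0.99 (-1.14 to -0.84), its 23-base form one of -0.79 (-0.85 to -0.73) and its 24-base form one of -1.19 (-1.25 to -1.12). miR-30e-5p had ratios of 0.00 (-0.38 to 0.38), -0.22 (-0.36 to -0.09) and -0.47 (-0.70 to -0.25) for the same forms, with intervals that overlap between neighbouring lengths. The form with 24 bases was the most common read of miR-30c-5p, at 46.7% of its reads in the overfed and 49.2% in the control library.

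Over all 5p reads, those of 24 bases or more made up 25.8% in the overfed library (25.1% to 26.5%) and 31.9% in the control library (31.4% to 32.5%). Those of 22 bases or fewer made up 22.8% in the overfed and 19.0% in the control library. Shorter reads were also more common in the overfed library outside the family: of 49 other miRNAs that reached 1000 reads in both libraries, 45 had a shorter mean read, with a median change of -0.10 bases. The change was -0.17 bases for miR-30a-5p, -0.07 for miR-30d-5p and -0.13 for miR-30e-5p. Among listed reads outside miR-30 and miR-122, the log2 ratio was -0.03 for 22 bases or fewer, -0.24 for 23 bases and -0.19 for 24 bases or more. Against miR-30 5p ratios of -0.59, -0.78 and -1.16 for the same classes, the family was lower in each class. With each length scaled to those other reads, an alternative chosen after seeing the data, miR-30d-5p was at -0.79, miR-30a-5p at -0.62 and miR-30e-5p at -0.09 with an interval that reached 0 (-0.19 to 0.01). On the same scaling the summed 5p arm was at -0.66 and the summed 3p arm at -0.28. The interval of miR-30c-5p, at -0.52 (-0.76 to -0.29), then overlapped with that of miR-30c-3p, at -0.33 (-0.39 to -0.26). The part that read length has in the ratio of miR-30e-5p and in the arm shares was not tested further.

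**Figure D4:**
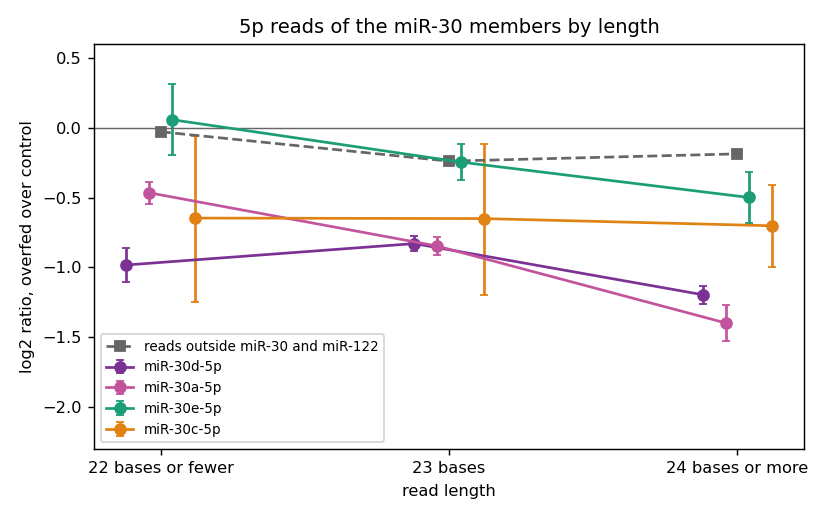
Log2 ratio of overfed over control for 5p reads of miR-30d, miR-30a, miR-30e and miR-30c in 3 classes of read length, with exact 95% intervals as bars, beside all listed reads outside miR-30 and miR-122 (grey squares). miR-30a-5p lies at -0.47, -0.85 and -1.40 and the grey squares at -0.03, -0.24 and -0.19 with increasing length, while miR-30c-5p changes little with length.

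Some reads had an A in place of, or after, the next reference base. Enzymes that add bases to the end of a miRNA can make this form. A goose genome that carries the A, or a wrong base at the end of a read, would give it too. The source of the A was not tested. Such reads gave 3.38% of miR-30a-5p reads in the overfed library (2.95% to 3.86%) and 3.91% in the control library (3.54% to 4.31%). For miR-30d-5p the shares were 4.36% (3.92% to 4.83%) in the overfed and 5.08% (4.73% to 5.45%) in the control library. The intervals of the 2 libraries overlap for both members, which does not show that the shares are alike.

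The first base of a read sets its seed, and the 5p and 3p arms differed in how fixed it was. Of miR-30d-5p reads 99.6% started at base 1 of the reference in each library, and of miR-30a-5p reads 99.2% in the overfed and 99.4% in the control library. miR-30e-5p reads started 1 base later more often, at 8.70% in the overfed library (7.38% to 10.2%) and 6.88% in the control library (5.77% to 8.13%). The 3p reads had mixed starts. For miR-30c-1-3p, the start at base 1 was the minor form, shown here beside the common one of the same length to make the shift of the seed visible.
miR-30c-1-3p, start at base 1: cTGGGAGAggattgtttacgcc
miR-30c-1-3p, start 1 base later: tGGGAGAGgattgtttacgcca

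The start at base 1 made up 26.4% of miR-30c-1-3p reads in the overfed library (24.3% to 28.6%) and 16.3% in the control library (14.5% to 18.2%). These reads stood at 45.8 RPM in the overfed and 27.8 RPM in the control library, a log2 ratio of 0.72 (0.50 to 0.95). Reads with the later start stood at 128 RPM in the overfed and 143 RPM in the control library (-0.16, -0.28 to -0.05). Over all read lengths, the near equality of miR-30c-1-3p between the libraries is thus the sum of start forms that differ in opposite directions. The later start was lower in reads of 22 bases or more (log2 ratio -0.23, -0.35 to -0.10). In reads of 21 bases or fewer its log2 ratio was 0.21, with an interval that includes 0 (-0.09 to 0.52). Among reads of 22 bases or more, those with the start at base 1 stood at 26.1 RPM in the overfed and 16.2 RPM in the control library (log2 ratio 0.68, 0.39 to 0.99), so the higher level was seen in the longer reads as well. The last base of the 22-base read with the later start was not fixed. The printed form with A stood at 54.4 RPM in the overfed and 64.1 RPM in the control library. A form with T stood at 50.8 RPM in the overfed and 58.9 RPM in the control library.

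For miR-30c-2-3p the start at base 1 was the major form, with 72.7% of overfed reads (70.7% to 74.6%) and 66.8% of control reads (64.8% to 68.6%). With tags of at least 21 bases the shares were 90.9% in the overfed (87.2% to 93.8%) and 92.1% in the control library (89.5% to 94.2%), with overlapping intervals. In reads named miR-30a-3p or miR-30b-3p the start at base 1 made up 45.7% in the overfed (40.9% to 50.5%) and 53.1% in the control library (48.6% to 57.6%), and in miR-30e-3p 78.8% (73.6% to 83.4%) in the overfed and 75.3% (68.6% to 81.2%) in the control library. Those intervals overlap. For comparison, the signed change in the share of the most common start had a median of 0 percentage points over those 49 other miRNAs. Rises and falls cancel in that median, so it is not a typical size of change. The largest change in either direction was 10.2 points.

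**Figure D5:**
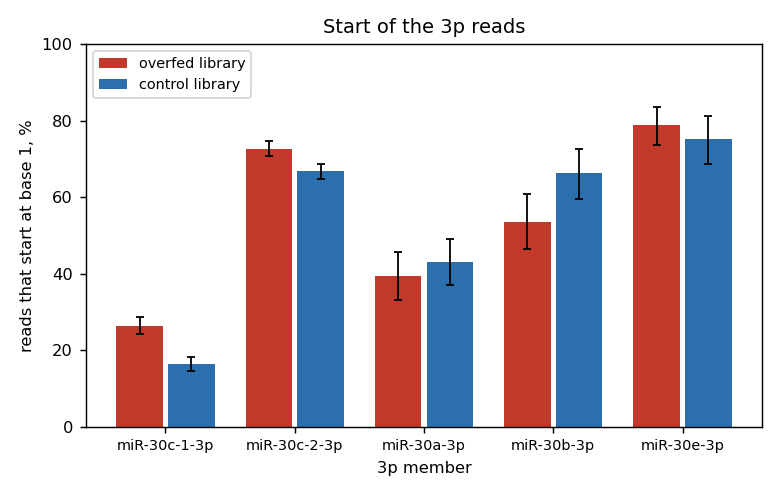
Share of reads that start at base 1 of the reference for each 3p member, in percent, with the overfed library in red left of the control library in blue and bars for exact 95% intervals. miR-30c-1-3p stands at 26.4% in the overfed and 16.3% in the control library, and the intervals do not overlap for it and for miR-30c-2-3p.

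By the seed of the reads themselves, the 5p seed GTAAACA stood at 1611 RPM in the overfed and 2916 RPM in the control library (log2 ratio -0.86, -0.88 to -0.83). The 3p seed TGGGAGA of both miR-30c copies stood at 195 RPM in the overfed and 207 RPM in the control library (-0.08, -0.18 to 0.01), and the 3p seed TTTCAGT at 43.9 RPM in the overfed and 45.2 RPM in the control library (-0.04, -0.24 to 0.15). The later starts gave other seeds. GGGAGAA, of miR-30c-2-3p, was lower, at 54.8 RPM in the overfed and 87.0 RPM in the control library (-0.67, -0.83 to -0.51). GGGAGAG, of miR-30c-1-3p, stood at 128 RPM in the overfed and 143 RPM in the control library (-0.16, -0.28 to -0.05), and TTCAGTC at 27.1 RPM in the overfed and 28.1 RPM in the control library (-0.05, -0.31 to 0.20). TGGGAGA mostly joined starts at base 1 of miR-30c-1-3p (0.72, 0.50 to 0.95) and miR-30c-2-3p (-0.26, -0.36 to -0.16). TTTCAGT mostly joined those named miR-30a-3p or miR-30b-3p (-0.47, -0.75 to -0.20) and miR-30e-3p (0.53, 0.22 to 0.84). For TGGGAGA and TTTCAGT, the ratios near 0 thus sum forms that differed in direction. The ratio of GGGAGAA rests mostly on reads of 21 bases or fewer (518 overfed and 790 control reads). The 3p seeds thus differed among themselves, while the 5p seed held most of the reads by which the family was lower.

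Among the 56 other miRNAs with a mean of at least 100 RPM, those with a log2 ratio nearest to that of the summed 5p arm (-0.85) were miR-29c-3p, known to target collagen genes, miR-148a-3p, a hepatocyte miRNA that acts on the LDL receptor in mouse and human, and miR-26a-5p. Their log2 ratios were -0.90, -0.69 and -0.65, which differ by 0.05, 0.15 and 0.20. This likeness is over 2 libraries only. For miR-26 it holds for 1 of 2 listed names. Reads named miR-26-5p stood at 486 RPM in the overfed and 465 RPM in the control library (log2 ratio 0.06). They were shorter, with a mean of 18.9 bases in the overfed library, against 23.1 bases for miR-26a-5p. Of 22 miRNAs reported to act on lipid or connective tissue genes in mammals, as miR-30 members are, 16 had at least 10 RPM. Of these 5 were higher and 9 lower in the overfed library beyond counting error, against 45.5% higher and 33.1% lower over the 145 miRNAs. The 9 include miR-29c-3p, miR-148a-3p and miR-26a-5p, named above for their low ratios, so the list is not separate from that likeness. None of the 16 met the rule of size, against 8.28% of the 145, and their median log2 ratio was -0.30, against 0.07. The 4 most abundant of the list were miR-122-5p, the hepatocyte miRNA (log2 ratio 0.03), miR-128-3p (0.03), miR-101-3p (-0.54) and miR-26a-5p. The list did not hold the names miR-101a-3p and miR-26-5p, so its counts and median leave them out. miR-101a-3p was more abundant than miR-101-3p, at 2824 RPM in the overfed and 3025 RPM in the control library (log2 ratio -0.10, -0.12 to -0.08). miR-122-5p and miR-128-3p were below 0 with TMM and DESeq2 factors.

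Markers of cell types were read in the same libraries, where 33.1% of the 145 miRNAs were lower and 45.5% higher in the overfed library beyond counting error. miR-122, which defines liver tissue here, held 74.4% of listed reads in the overfed and 72.7% in the control library. The hepatocyte list summed to 744035 RPM in the overfed and 727147 RPM in the control library, nearly all of it miR-122-5p; of its 3 miRNAs of at least 10 RPM 1 was higher and 2 were lower, miR-148a-3p (-0.69) and miR-22-3p (-0.14). Of the stellate or mesenchymal list all 5 entries were lower, with sums of 5804 RPM in the overfed and 7063 RPM in the control library. The list held 1 arm of each miRNA, and miR-199-3p and miR-199a-3p were separate entries. Of the arms left out, miR-199a-5p was higher (0.15, 0.03 to 0.28), miR-143-5p had an interval that includes 0 (0.10, -0.04 to 0.24) and miR-145-3p was lower (-0.54, -0.92 to -0.16). Leukocyte miRNAs summed to 116 RPM in the overfed and 107 RPM in the control library, with 1 of 3 higher and 1 lower. Both red cell miRNAs of the list with at least 10 RPM were lower, and the list summed to 206 RPM in the overfed and 253 RPM in the control library. The arm miR-144*, outside the list, was higher (0.35, 0.01 to 0.70). The arms of miR-126, the endothelial marker, differed in direction. miR-126-5p stood at 73.3 RPM in the overfed and 59.5 RPM in the control library (log2 ratio 0.30, 0.14 to 0.47), and miR-126-3p at 17.7 RPM in the overfed and 23.3 RPM in the control library (-0.40, -0.70 to -0.10). Muscle miRNAs summed to 891 RPM in the overfed and 826 RPM in the control library, with 3 of 3 higher, though the most abundant, miR-1a-3p (0.06), was below 0 with TMM and DESeq2 factors. Epithelial miRNAs summed to 279 RPM in the overfed and 123 RPM in the control library. That sum was led by miR-203-3p, at 219 RPM in the overfed and 43.1 RPM in the control library, while the 2 others of at least 10 RPM were lower, miR-200b-3p (-0.72) and miR-200a-3p (-0.29). The part of these cell types in the lower level of miR-30 was not tested.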

How the data were processed

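RNA fragments of 20 to 30 nt were gel-purified from 10 μg of total liver RNA and made into Illumina libraries, per the labels' protocols. For each library the authors deposited the read count of every distinct read (tag) that matched a miRNA, under its best reference from any species. The counts are whole and not normalized. Each tag also has its length, its matched, mismatched and unmatched bases and an alignment score, which the authors deposited with it and which served only to check those columns. Aligner and reference database, not given in the sources used here, could affect which tags are listed. Listed totals are not the depth of the whole libraries.

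Groups came from the labels. Species prefixes and copy numbers were dropped, and a name without an arm took the arm of a named reference with the same or a 1-base shifted seed. Ratios have exact conditional binomial, shares exact Clopper-Pearson and levels exact Poisson 95% intervals. No p-value was computed. The rule of size, the lists and the rule for named miRNAs (all members, the 3 miRNAs nearest in ratio, and the 4 most abundant and any meeting the rule in the list) were chosen with earlier results of these data known. Sequences are reads of the deposited tables. Genome positions are not given, since the gene table used here (RefSeq) names no miRNA genes. Alternatives are in the closing section. The intervals and the rule were run on Poisson counts simulated with known folds. The intervals are built for such counts, so this checked the code and not the libraries. That simulation had no variation between birds or libraries and no amplified copies, so it covers counting error of independent reads only. Python 3.11.15, numpy 2.4.6, pandas 2.3.3, scipy 1.17.1, matplotlib 3.10.9, R 4.3.3, edgeR 4.0.16 and DESeq2 1.42.0 were used, the last 2 for scaling factors only.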

Additional observations from a re-analysis of the deposited data

How the results depend on the processing

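No paired analysis was possible because there is only 1 library for each diet, which also leaves no replicate to drop. Depth limits miR-30b-5p and miR-30d-3p, each with under 50 reads in all. Of 118 log2 ratios under alternatives, 111 kept their sign and their side of the rule of size. This count is not a measure of stability, since the same reads enter as family, arm and member. Some alternatives also shift all ratios alike. A ratio counted as kept even where its interval came to include 0, as for miR-30a-3p with tags of at least 21 bases (-0.51 to 0.01).

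TMM factors put 1 member, miR-30d-5p, past the rule and the summed 5p arm at -1.05, and DESeq2's factors 1 member as well; these shift all ratios alike. Without a minimum 1 member passed, miR-30b-5p with few reads, and at 1.5 times 3. Against 12 miRNAs in all, the rule gave 5 with a minimum of 100 RPM, 42 without one, 39 at 1.5 times and 30 when scaled without miR-122, where more miRNAs reach 10 RPM and all ratios are higher. Ratios changed sign for miR-30c-1-3p (-0.18 with TMM factors, -0.077 with DESeq2's, -0.028 with tags of at least 21 bases) and for miR-30b-3p (1.5, with 8 reads left after reassignment). Length-matched scaling, added after seeing the data, gave -0.66 for the 5p arm and -0.28 for the 3p arm.

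With tags of at least 21 bases the family held 0.196% of overfed and 0.333% of control reads and its 5p share was 86.9% in the overfed and 91.3% in the control library, since shorter 3p reads drop out. With tags without a mismatch or gap the family held 0.190% of overfed and 0.327% of control reads, the 5p share was 85.4% in the overfed and 89.4% in the control library, since reads of miR-30c-1-3p drop out, and 24.8% of overfed 5p reads had 24 bases or more; the cause of this last change was not tested.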
